A study of Mus musculus with 16 samples.

Results

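A set of 10 genes that mark fibroblasts and smooth muscle cells of the lung were followed in cells labelled as primary alveolar type II cells: 5 smooth muscle markers (Acta2, Tagln, Cnn1, Myh11, Des) and 5 fibroblast markers (Pdgfra, Tcf21, Fgf10, Inmt, Thy1). They are 10 of the 34781 gene names with a probe on the array and 10 of the 25401 genes tested. They were taken by name from the array annotation, where each has 1 probe, and all 10 passed the filter on dim probes. The cells came from lungs of C57BL/6 mice, with no genetic change named, and 4 groups of 4 one-colour arrays were compared: hyperoxia (85% O2) for 24 h, normoxia (21% O2) for 24 h, hyperoxia for 6 h and normoxia for 6 h. The labels do not say how the cells were isolated, how pure they were or whether replicates came from separate animals, so p-values measure only the spread between these arrays. A level is the log2 signal of a gene relative to the 75th percentile of its own array, errors of group means are SD, and errors of log2 fold changes are SE, with n = 4 arrays per group. The words rose and fell are kept for genes with a limma adjusted p below 0.05.

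Fibroblasts and smooth muscle cells make up much of the supporting tissue of the alveoli, airways and vessels. Smooth muscle cells contract through actin and myosin filaments, and the genes for these proteins are switched on by serum response factor, which binds a DNA element called the CArG box, together with coactivators of the myocardin family. Fibroblasts next to alveoli carry the PDGF receptor alpha, store lipid or lay down elastin, and send the growth factor FGF10 to the epithelium, which answers through the receptor FGFR2. Activated fibroblasts and myofibroblasts also make smooth muscle actin, so that Acta2 and its partners are not limited to vessel and airway muscle. In bulk RNA, fewer cells of a type and less RNA per cell cannot be told apart, and neither can expression in type II cells and in other cells among them.

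Sequences are shown for 3 smooth muscle genes that parted from each other at 24 h, to set their start regions side by side, and for the desmin probe, on which the largest fall rests. Promoters run from 250 bases before to 50 bases after the RefSeq start site (build GRCm38.p6), are written 5′ to 3′ on the strand of the gene, and capitals mark a CArG box with at most 1 mismatch to its consensus. The table used holds 7 of the 10 genes. Tagln, Myh11 and Thy1 have no entry there.
Acta2 promoter, chr19:34255324-34255623, minus strand: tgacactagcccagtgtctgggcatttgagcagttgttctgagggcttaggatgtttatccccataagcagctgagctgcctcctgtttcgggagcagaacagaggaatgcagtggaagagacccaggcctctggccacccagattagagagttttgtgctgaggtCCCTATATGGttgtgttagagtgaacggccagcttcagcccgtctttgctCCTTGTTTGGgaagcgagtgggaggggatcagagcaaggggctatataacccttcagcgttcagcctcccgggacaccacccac
Cnn1 promoter, chr9:22099003-22099302, plus strand: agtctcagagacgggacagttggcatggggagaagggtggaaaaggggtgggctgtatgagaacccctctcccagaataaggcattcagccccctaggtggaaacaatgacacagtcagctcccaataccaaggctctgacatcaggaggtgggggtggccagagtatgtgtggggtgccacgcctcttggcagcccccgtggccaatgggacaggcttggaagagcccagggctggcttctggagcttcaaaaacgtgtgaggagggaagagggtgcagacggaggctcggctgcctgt
Des promoter, chr1:75360042-75360341, plus strand: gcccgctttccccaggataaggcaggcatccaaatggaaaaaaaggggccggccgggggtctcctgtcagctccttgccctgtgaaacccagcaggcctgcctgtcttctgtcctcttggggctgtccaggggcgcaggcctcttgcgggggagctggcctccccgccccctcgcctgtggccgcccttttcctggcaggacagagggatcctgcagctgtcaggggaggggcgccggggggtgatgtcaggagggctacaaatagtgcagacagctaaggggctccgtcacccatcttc
Des probe of the array, mm9 chr1:75363404-75363629, with the stop codon in capitals: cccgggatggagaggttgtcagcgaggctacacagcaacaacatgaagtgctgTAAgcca
The Acta2 window held 2 such boxes, which began at -84 and -34 relative to the start site. Of all 32851 mouse promoters of this length, 21.1% held at least 1, against 1 of the 7 member promoters and 8 of 22 promoters of the other contractile genes listed below. Without a mismatch the box was in 1.63% of all promoters, in 0 of the 7 and in 2 of the 22. The consensus is the same on both strands, so 1 search covered both. A match is a match of letters only. The desmin probe of 60 bases lies over 226 bases of genome, so it spans an intron, and it is spotted 10 times on each array, with a median SD of 0.05 on the log2 scale between its spots.

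The 24 h arrays shared 1 slide and the 6 h arrays a second one, so that a change over time cannot be told apart from a slide difference. Within a slide hyperoxia took row 2 and normoxia row 1, which ties oxygen to the row, and replicates are numbered by column. Between 53.6% and 69.0% of probes were well above background on an array. Of 13 type II cell markers 12 were tested, and their mean level was -0.30 to 0.32 on hyperoxia 24 h arrays and -0.32 to 0.10 on normoxia 24 h arrays, against 1.14 to 1.59 on hyperoxia 6 h arrays and 1.16 to 1.41 on normoxia 6 h arrays. The surfactant protein gene Sftpc was well above background on all 16 arrays, the phosphate transporter gene Slc34a2 on none, and Cxcl15 on none at 24 h. Of the other cell types that could be present, all 5 mesothelial markers were well above background on all 16 arrays. Of 8 T cell genes, Cd3d and Cd3g were so on no array. Others were so on all 4 arrays of a group: 4 genes in hyperoxia and 4 in normoxia at 24 h, and 4 and 5 at 6 h. Of 8 endothelial genes Emcn was so on no array, while Kdr and Egfl7 were so on all 16. All 4 arrays of a group held 4 endothelial genes in hyperoxia and 3 in normoxia at 24 h, and 5 in each at 6 h.

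**Figure D1:**
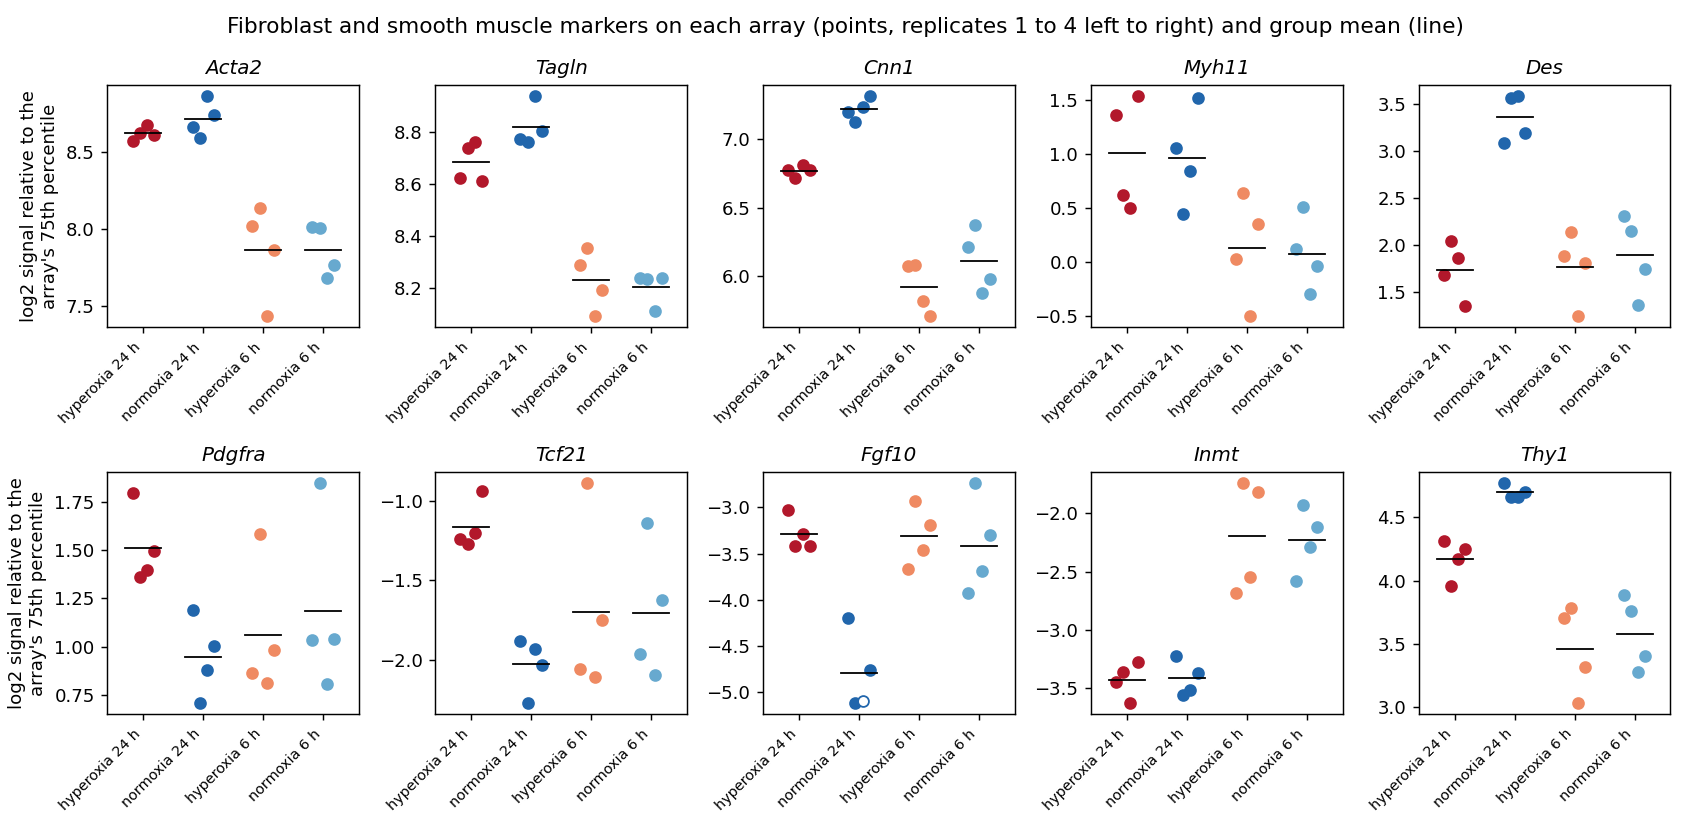
Level of each of the 10 genes (log2 signal relative to the array's 75th percentile) on every array, in the order hyperoxia 24 h, normoxia 24 h, hyperoxia 6 h and normoxia 6 h. Points are arrays (open where not well above background), lines are group means. Des in hyperoxia at 24 h lies from 1.35 to 2.05, below all normoxia 24 h arrays (3.09 to 3.58), and Fgf10 lies above them.

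After 24 h, hyperoxia was set against normoxia to see what the high oxygen did to these markers. They did not move as a block: Fgf10 and Tcf21 were higher in hyperoxia, and Des, Thy1 and Cnn1 were lower, while Acta2, Tagln, Myh11 and Inmt did not pass the test. In all 5 of 10 genes were called, 2 higher and 3 lower, where 28.3% of all tested genes were called, 15.5% higher and 12.8% lower. Groups did not overlap for 3 genes that were higher and 3 that were lower, against 17.9% and 15.3% of all genes. The median of the 10 log2 fold changes was -0.05, and that of all genes 0.01.

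Desmin (Des), the intermediate filament protein of muscle cells, had the largest change of the 10. Its levels on the 4 hyperoxia 24 h arrays were 1.68, 2.05, 1.87 and 1.35, against 3.09, 3.56, 3.58 and 3.19 on the normoxia 24 h arrays. The highest hyperoxia array lay more than 1 log2 unit below the lowest normoxia array. The fall was 3.07-fold (log2 fold change -1.62 ± 0.23, adjusted p = 8.41e-05), and the call held with each array left out and under each other setting tried.

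Calponin 1 (Cnn1), an actin-binding protein of smooth muscle, fell less. It stood at 6.78, 6.72, 6.81 and 6.78 in hyperoxia at 24 h and at 7.20, 7.12, 7.23 and 7.32 in normoxia at 24 h. The arrays of each group lay close together and the groups did not overlap. The fall was 1.36-fold (-0.45 ± 0.11, adjusted p = 0.00583). The remaining smooth muscle genes gave no call. Smooth muscle actin (Acta2) averaged 8.62 ± 0.04 in hyperoxia and 8.71 ± 0.12 in normoxia, with a log2 fold change of -0.09 and a 95% interval of -0.37 to 0.18. Transgelin (Tagln), another actin-binding protein, averaged 8.68 ± 0.08 in hyperoxia and 8.82 ± 0.08 in normoxia (-0.14, interval -0.28 to 0.01, adjusted p = 0.173). For smooth muscle myosin heavy chain (Myh11) the arrays spread widely, with 1.01 ± 0.52 in hyperoxia and 0.97 ± 0.45 in normoxia, and the interval of the log2 fold change was -0.60 to 0.68.

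Among the fibroblast genes, Fgf10 rose most. Its levels were -3.03, -3.42, -3.29 and -3.42 in hyperoxia at 24 h, against -4.19, -5.12, -5.10 and -4.76 in normoxia at 24 h. Every hyperoxia array lay above every normoxia array. The rise was 2.84-fold (1.51 ± 0.25, adjusted p = 0.000413), but the signal was dim. Of the 10 Fgf10 spots, all were well above background on each hyperoxia array, and 10, 8, 1 and 9 were so on the normoxia arrays. With the normexp background correction the rise shrank to 0.46, with the call kept.

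Tcf21, a transcription factor of the lung mesenchyme, rose as well. It stood at -1.24, -1.27, -1.20 and -0.93 in hyperoxia and at -1.88, -2.28, -1.93 and -2.03 in normoxia at 24 h, without overlap. The rise was 1.83-fold (0.87 ± 0.25, adjusted p = 0.016). Pdgfra, the PDGF receptor of alveolar fibroblasts, had the same order of groups, with 1.79, 1.36, 1.40 and 1.50 in hyperoxia against 1.19, 0.71, 0.88 and 1.00 in normoxia. Those groups did not overlap, but the difference of 0.57 ± 0.21 missed the threshold (adjusted p = 0.0621). It passed with same-numbered arrays of the slide as blocks (adjusted p = 0.000259), and also without normoxia 6 h replicate 2 (0.0191) or hyperoxia 6 h replicate 2 (0.0366), which enter only through the shared estimate of spread. It also passed with the normexp correction (0.0484), with array weights (0.0445) and in a fit of the compared groups alone (0.014).

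Thy1, a surface protein of many fibroblasts and of T cells, went the other way. It stood at 4.31, 3.96, 4.17 and 4.25 in hyperoxia and at 4.77, 4.66, 4.66 and 4.70 in normoxia at 24 h. Again no array of one group reached the other. The fall was 1.44-fold (-0.53 ± 0.16, adjusted p = 0.0246), and it missed the threshold without normoxia 24 h replicate 1 (0.0585), hyperoxia 24 h replicate 2 (0.0739) or hyperoxia 24 h replicate 3 (0.0513). Inmt, which encodes a methyltransferase of tryptamine and related amines, averaged -3.43 ± 0.15 in hyperoxia and -3.41 ± 0.15 in normoxia (-0.01, interval -0.44 to 0.41).

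**Figure D2:**
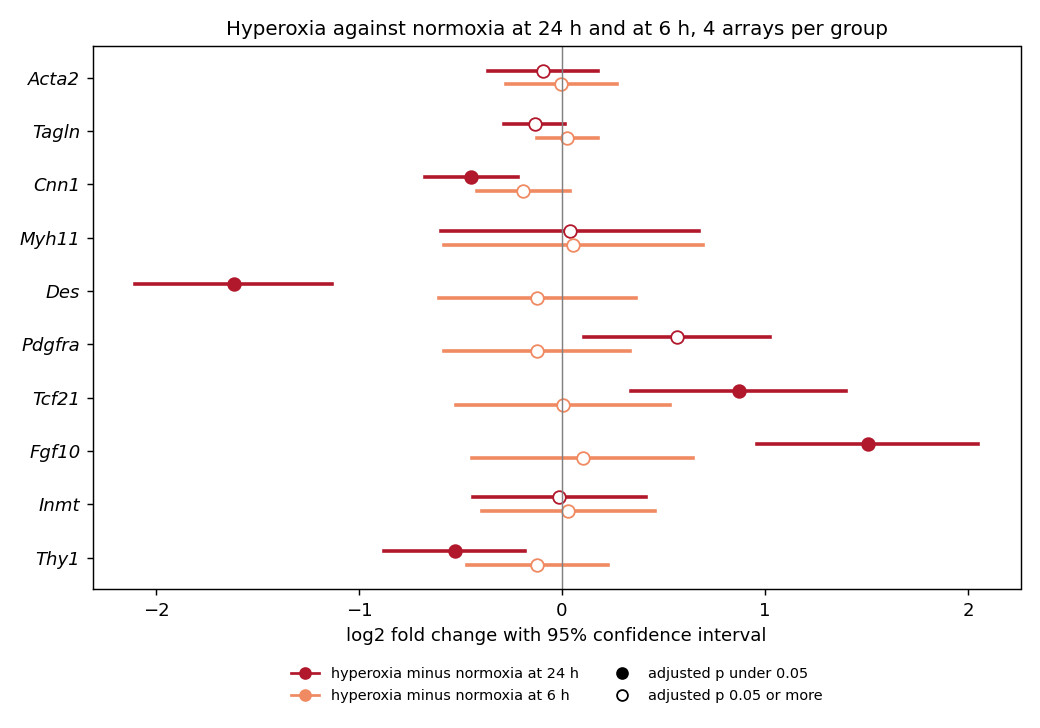
Log2 fold change of hyperoxia over normoxia at 24 h and at 6 h for each of the 10 genes, with 95% confidence intervals. Filled points passed the test. At 24 h Des, Thy1 and Cnn1 lie left of 0 and Fgf10 and Tcf21 right of it, and at 6 h every interval includes 0.

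At 6 h hyperoxia and normoxia could not be told apart for any of the 10 genes. In all 0 were called, against 0.327% of all genes (0.236% higher and 0.0905% lower), none had groups without overlap, and none had an unadjusted limma p under 0.05, the lowest being 0.0984 for Cnn1 (-0.19 ± 0.11). Of all genes 1874 had an unadjusted p under 0.05. The largest difference after that of Cnn1 was -0.12 for Pdgfra, with an interval of -0.58 to 0.33. For Des the interval of the 6 h difference was -0.61 to 0.36 and for Fgf10 -0.44 to 0.65. The 24 h values of Des, Fgf10, Tcf21, Pdgfra, Thy1, Cnn1 and Tagln lie outside their own 6 h intervals. That comparison leaves out the error of the 24 h values.

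Whether the effect of hyperoxia differed between the times was tested directly. Of the 10 genes 1 was called higher and 1 lower in this difference, against 12.3% of all genes called (6.63% higher and 5.63% lower). For Des the effect at 24 h differed from that at 6 h by -1.50 ± 0.32 on the log2 scale (adjusted p = 0.00679). For Fgf10 it was higher by 1.40 ± 0.36 (adjusted p = 0.0192), a call that was lost with the normexp correction (0.41, adjusted p = 0.154). Tcf21 (0.86 ± 0.35, adjusted p = 0.132), Pdgfra (0.69 ± 0.30, 0.168) and Thy1 (-0.41 ± 0.23, 0.297) did not pass. With pairs of same-numbered arrays within a slide as blocks these 3 passed too, at 0.00403, 0.00176 and 0.024. The call for Tcf21 was also made without hyperoxia 6 h replicate 2 (1.14, adjusted p = 0.0129). Cnn1, which was called at 24 h, did not pass in this difference (-0.26 ± 0.15, adjusted p = 0.321), nor under any alternative.

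The 24 h arrays were then set against the 6 h arrays of the same oxygen group. The smooth muscle markers were higher at 24 h in both, the exception being Des in hyperoxia, and Inmt was lower in both. In hyperoxia 5 genes were called higher and 1 lower, with 52.4% of all genes called, 25% higher and 27.4% lower. In normoxia 6 were called higher and 2 lower, with 44.2% of all genes called, 20.6% higher and 23.5% lower. The split of all genes depends on the scaling: on median-scaled arrays 10681 genes were called higher and 4203 lower in hyperoxia and 10102 and 3409 in normoxia, against 6348 and 6950 in hyperoxia and 5238 and 5978 in normoxia as reported. That scaling moved the median of all genes by about 0.2 (to 0.20 in hyperoxia and 0.19 in normoxia, against -0.02 in each), and no called change of a member reversed with it. The uncalled change of Des in hyperoxia was 0.18 on median-scaled arrays, against -0.03 as reported.

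**Figure D3:**
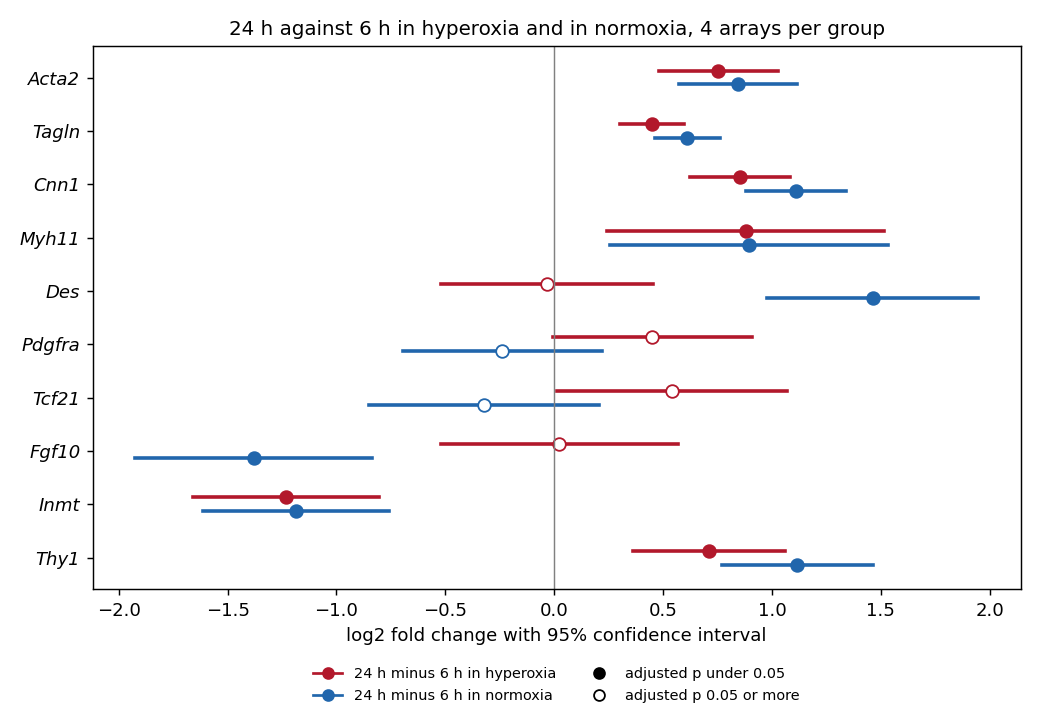
Log2 fold change of 24 h over 6 h in hyperoxia and in normoxia for each of the 10 genes, with 95% confidence intervals and filled points for calls. Acta2, Tagln, Cnn1, Myh11 and Thy1 lie right of 0 and Inmt left of it in both, while Des and Fgf10 differ from 0 in normoxia alone by the test.

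Acta2 was measured at 8.57, 8.62, 8.67 and 8.61 in hyperoxia at 24 h, against 8.02, 8.14, 7.44 and 7.86 in hyperoxia at 6 h. In normoxia its levels were 8.66, 8.59, 8.86 and 8.74 at 24 h and 8.01, 8.01, 7.68 and 7.77 at 6 h. All 8 arrays at 24 h thus lay above all 8 at 6 h on this scale. Before scaling, the median Acta2 spot signals overlapped, from 255692 to 305893 at 24 h and from 154835 to 277206 at 6 h. The 75th percentile of the signal was 556 to 801 on 24 h arrays and 899 to 1021 on 6 h arrays. The rise was 1.69-fold in hyperoxia (0.75 ± 0.13, adjusted p = 0.000227) and 1.80-fold in normoxia (0.84 ± 0.13, adjusted p = 0.000174), and over the settings tried the log2 value ran between 0.49 and 0.97 in hyperoxia and between 0.48 and 1.05 in normoxia.

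Cnn1 kept the same order but also split by oxygen at 24 h. Its mean was 6.77 ± 0.04 in hyperoxia at 24 h against 5.92 ± 0.19 in hyperoxia at 6 h, and 7.22 ± 0.08 in normoxia at 24 h against 6.11 ± 0.22 in normoxia at 6 h. The rise was 1.81-fold in hyperoxia (0.85 ± 0.11, adjusted p = 1.86e-05) and 2.16-fold in normoxia (1.11 ± 0.11, adjusted p = 8.74e-06). Tagln rose by 0.45 ± 0.07 in hyperoxia and by 0.61 ± 0.07 in normoxia. Its call in hyperoxia was lost under quantile normalization (0.19, adjusted p = 0.0509), which gave about the same as the values of the authors' deposited table (0.051). Myh11 rose by 0.88 ± 0.30 in hyperoxia and by 0.89 ± 0.30 in normoxia, but its groups overlapped in both. That call was lost in hyperoxia without hyperoxia 24 h replicate 1 (0.0673) or replicate 4 (0.0749) or hyperoxia 6 h replicate 1 (0.05) or replicate 3 (0.074). Array weights also took it below the threshold for a call in hyperoxia (0.68, adjusted p = 0.0531). In normoxia it was lost without normoxia 24 h replicate 1 (0.0533) or replicate 4 (0.0792) or normoxia 6 h replicate 3 (0.0745) or replicate 4 (0.0584).

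Des is the smooth muscle marker whose time course differed by oxygen. In hyperoxia its levels were 1.68, 2.05, 1.87 and 1.35 at 24 h and 1.89, 2.14, 1.25 and 1.81 at 6 h, which overlap fully (-0.03 ± 0.23, interval -0.52 to 0.45). In normoxia they were 3.09, 3.56, 3.58 and 3.19 at 24 h and 2.31, 2.15, 1.37 and 1.74 at 6 h, without overlap, a rise of 2.75-fold (1.46 ± 0.23, adjusted p = 0.000216). Of the 4 group means of Des the normoxia 24 h mean, 3.35 ± 0.25, stood alone, and the other 3 lay between 1.74 and 1.89. The normoxia 24 h arrays enter both this rise and the fall in hyperoxia at 24 h, so the 2 results share those arrays.

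Fgf10 had the mirrored pattern. In hyperoxia it averaged -3.29 ± 0.18 at 24 h and -3.31 ± 0.32 at 6 h (0.02, interval -0.52 to 0.57). In normoxia it averaged -4.79 ± 0.43 at 24 h and -3.41 ± 0.52 at 6 h, a fall of 2.60-fold without overlap (-1.38 ± 0.25, adjusted p = 0.00073). Under the normexp correction that fall was -0.24 (adjusted p = 0.124), so its size and its call rest on how the background of a dim spot is treated.

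Inmt fell over time at either oxygen level. It stood at -3.45, -3.36, -3.63 and -3.27 in hyperoxia at 24 h against -2.68, -1.74, -2.55 and -1.82 in hyperoxia at 6 h, and at -3.22, -3.56, -3.51 and -3.37 in normoxia at 24 h against -2.58, -1.93, -2.29 and -2.11 in normoxia at 6 h. No 24 h array reached a 6 h array. The fall was 2.35-fold in hyperoxia (-1.23 ± 0.20, adjusted p = 0.000162) and 2.28-fold in normoxia (-1.19 ± 0.20, adjusted p = 0.000378). With the normexp correction the log2 change was -0.65 in hyperoxia and -0.54 in normoxia, with both calls kept. Thy1 rose by 0.71 ± 0.16 in hyperoxia and by 1.12 ± 0.16 in normoxia, with adjusted p of 0.00223 and 0.000134 and no overlap in either.

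For Pdgfra and Tcf21 the change over time was not called on arrays scaled to the 75th percentile. Pdgfra averaged 1.51 ± 0.20 in hyperoxia at 24 h and 1.06 ± 0.36 in hyperoxia at 6 h (0.45 ± 0.21, adjusted p = 0.0894), and 0.95 ± 0.20 in normoxia at 24 h and 1.18 ± 0.46 in normoxia at 6 h (-0.24 ± 0.21, adjusted p = 0.384). Tcf21 averaged -1.16 ± 0.15 in hyperoxia at 24 h and -1.70 ± 0.57 in hyperoxia at 6 h (0.54 ± 0.25, adjusted p = 0.0794), and -2.03 ± 0.18 in normoxia at 24 h and -1.71 ± 0.43 in normoxia at 6 h (-0.32 ± 0.25, adjusted p = 0.304). Without hyperoxia 6 h replicate 2, the array where both stood highest of their group, the change in hyperoxia was called for Pdgfra (0.63, adjusted p = 0.0206) and for Tcf21 (0.81, adjusted p = 0.00358). On median-scaled arrays it was called for Pdgfra (0.67, adjusted p = 0.0155) and Tcf21 (0.76, adjusted p = 0.0178), and for Pdgfra also without normoxia 6 h replicate 2 (adjusted p = 0.0332).

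The 10 genes also moved together from array to array within a group at 6 h. Hyperoxia 6 h replicate 2 had the highest value of its group for 10 of the 10 genes, against 21.7% of all genes, and hyperoxia 6 h replicate 3 the lowest for 7, against 32.0% of all genes. Normoxia 6 h replicate 2 was highest for 6 (25.0% of all genes) and normoxia 6 h replicate 3 lowest for 8 (25.5%). The mean deviation of the 10 genes from their group means was 0.39 and -0.34 on hyperoxia 6 h replicates 2 and 3 and 0.35 and -0.28 on normoxia 6 h replicates 2 and 3, while that of all genes lay between -0.02 and 0.01 on these arrays. The other 34 lung fibroblast genes deviated by 0.29 and -0.17 on hyperoxia 6 h replicates 2 and 3 and by 0.34 and -0.25 on normoxia 6 h replicates 2 and 3. At 24 h normoxia replicate 2 was lowest for 9 of the 10 genes (23.4% of all genes), and on it 10 of the 12 type II markers lay above their group mean, with a mean deviation of 0.24. On replicate 2 of the 6 h groups the type II markers deviated the same way as the 10 genes, by 0.16 in hyperoxia and 0.17 in normoxia. On replicate 3 of the 6 h groups they deviated by 0.22 in hyperoxia, opposite to the 10 genes, and by -0.06 in normoxia. The part of these shared deviations in the group differences was not tested beyond leaving out each array.

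**Figure D4:**
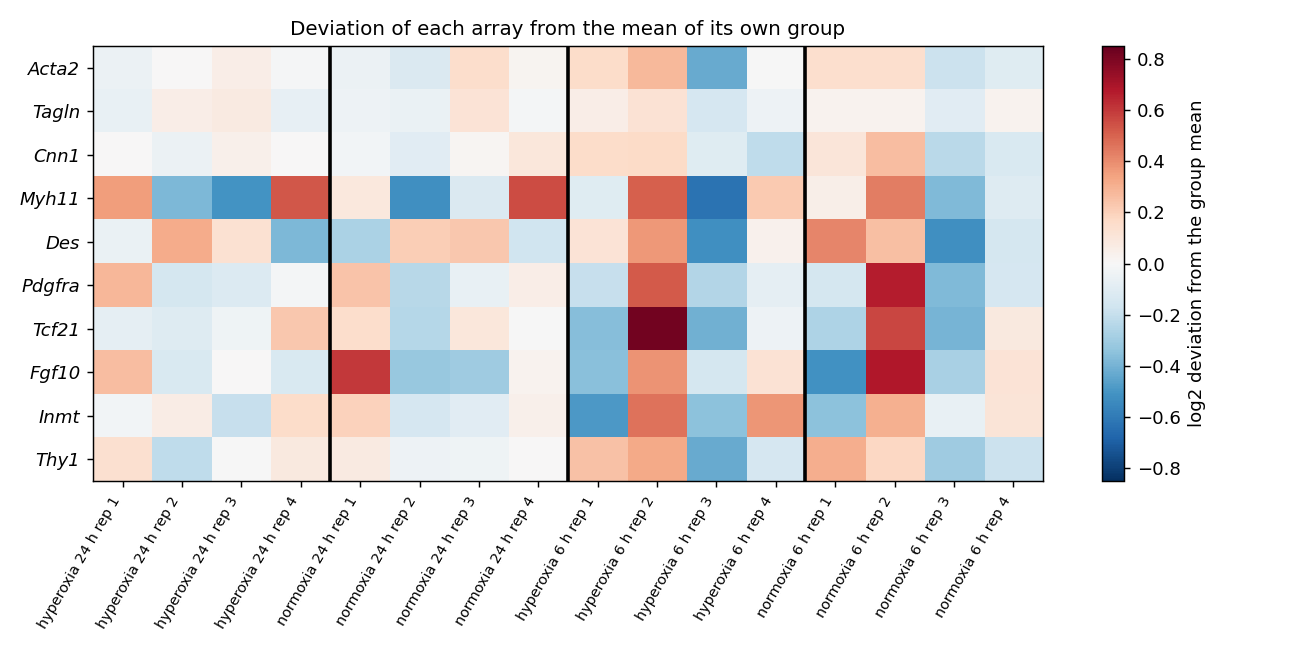
Log2 deviation of each array (columns) from the mean of its own group, for each of the 10 genes (rows), red above and blue below the mean. Columns run from hyperoxia 24 h to normoxia 6 h. In both 6 h groups replicate 2 is red and replicate 3 blue for every gene.

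The pattern of the 9 genes with at least 1 call, all but Pdgfra, over the 16 arrays was compared with that of every other named gene by the root mean square difference of values centred on their own mean, over 17284 candidates. Closest to Acta2 were Syp and Drc3 (0.09 each), to Tagln Mtch1 (0.07) and Glb1 (0.08), and to Thy1 Mmp19 (0.12) and Olfr907 (0.14). The next genes to Cnn1 were Speg (0.11) and the collagen gene Col1a2 (0.12), and to Myh11 the smooth muscle actin gene Actg2 (0.21) and Lrrc32 (0.24). Des had Pck2 and Stard5 (0.27 each), Tcf21 Nudt22 (0.22) and Cxcl14 (0.23), Fgf10 Ptger4 (0.30) and Ccno (0.32), and Inmt Bpgm (0.25) and Vmn2r58 (0.26). Among the 10 genes themselves the closest pairs were Cnn1 with Thy1 (0.14), Acta2 with Tagln (0.17), and Pdgfra with Tcf21 and Acta2 with Cnn1 (0.20 each), and the farthest was Des with Fgf10 (1.38).

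Other genes of the contractile apparatus were measured beside the members. Of 22 listed 21 were tested. Over time 15 rose and 1 fell in hyperoxia, and 14 rose and 2 fell in normoxia, with list medians of 0.65 and 0.45 against -0.02 in each for all genes. Of all genes 25% were called higher and 27.4% lower in hyperoxia, and 20.6% and 23.5% in normoxia. Lmod1, a protein that nucleates actin filaments, rose by 2.28 ± 0.36 in hyperoxia and by 1.51 ± 0.36 in normoxia, and Kcnmb1, a subunit of the large potassium channel of smooth muscle, rose by 1.67 ± 0.22 in hyperoxia and by 1.31 ± 0.22 in normoxia. Synpo2 rose by 1.68 ± 0.24 in hyperoxia, and the integrin Itga7 rose by 1.19 ± 0.22 in normoxia. Smoothelin (Smtn) fell by 0.28 ± 0.09 in hyperoxia, a call lost on median-scaled arrays, where the adjusted p was 0.544. In normoxia the filament gene Synm fell by 0.61 ± 0.16 and Pdlim3 by 0.66 ± 0.26. The call for Pdlim3 (adjusted p = 0.0494) was lost under 17 of the alternatives, and that for Synm on median-scaled arrays (0.0512).

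At 24 h, hyperoxia raised 4 of the 21 contractile genes and lowered 1, against 28.3% of all genes called, with a list median of 0.21. The actin-bundling protein Synpo2 rose 2.75-fold (1.46 ± 0.24, adjusted p = 0.000382), Synm, a partner of desmin in filaments, 2.17-fold (1.12 ± 0.16, adjusted p = 9.92e-05), and tropomyosin Tpm1 1.30-fold (0.38 ± 0.07). The rise of Synpo2, which was well above background on 3 of the 4 normoxia 24 h arrays, was 0.50 with the normexp correction. Smtn fell 1.60-fold (-0.68 ± 0.09, adjusted p = 3.07e-05). Their effects at 24 h and 6 h differed by 1.37 ± 0.34 for Synpo2, by 1.00 ± 0.23 for Synm, by 0.33 ± 0.10 for Tpm1 and by -0.55 ± 0.12 for Smtn. The difference for Tpm1 (adjusted p = 0.0485) was lost under 18 of the alternatives and that for Synpo2 under the normexp correction (0.117). Of serum response factor and its coactivators, Srf itself fell over time by 0.46 ± 0.10 in hyperoxia and by 0.29 ± 0.10 in normoxia, the second lost on median-scaled arrays (0.494) and in 3 of the fits without 1 array, and Mrtfb was higher in hyperoxia at 24 h by 0.36 ± 0.13 (adjusted p = 0.0479), a call lost under 14 of the alternatives. At 6 h 0 of the 126 tested genes in all lists were called for hyperoxia by limma, and 8 had an unadjusted p under 0.05.

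Of 36 other lung fibroblast genes 34 were tested. Hyperoxia at 24 h raised 2 and lowered 3, against 28.3% of all genes called, with a median of -0.06. Meox2, a homeobox gene, fell 2.33-fold (-1.22 ± 0.22, adjusted p = 0.000667). Its log2 value ran between -1.33 and -0.66 over the alternatives, with the call kept. Loxl1, which crosslinks elastin (-0.46 ± 0.15), and Ptch1, the hedgehog receptor (-0.25 ± 0.09), fell less, and Enpp2, which makes lysophosphatidic acid (0.71 ± 0.23), and Wnt5a (0.33 ± 0.09) rose. These 4 calls were lost under 7, 13, 7 and 2 of the alternatives. Over the alternatives the count ranged between 0 and 8 genes higher and between 1 and 8 lower. Over time 13 rose and 3 fell in hyperoxia, against 52.4% of all genes called, 25% higher and 27.4% lower. In normoxia 12 rose and 2 fell, against 44.2% of all genes called, 20.6% higher and 23.5% lower. Col14a1 rose by 1.42 ± 0.25 in hyperoxia and by 1.53 ± 0.25 in normoxia, elastin (Eln) by 1.16 ± 0.40 and 1.05 ± 0.40, periostin (Postn) by 1.04 ± 0.27 in hyperoxia and Col1a2 by 0.94 ± 0.12 in normoxia. The Eln call was lost without hyperoxia 24 h replicate 2 (0.067) in hyperoxia and without normoxia 24 h replicate 2 (0.13) in normoxia, among others.

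Among the falls over time, the secreted protein gene Scube2 fell by 0.64 ± 0.09 in hyperoxia and by 0.58 ± 0.09 in normoxia. Meox2 fell by 1.19 ± 0.22 and Tgfbi by 0.55 ± 0.20 in hyperoxia, the call for Tgfbi being lost under 9 of the alternatives, and Enpp2 fell by 1.19 ± 0.23 in normoxia. The log2 change of Meox2 in hyperoxia ran between -1.27 and -0.56 over the alternatives, with the call kept. Wnt5a was the one fibroblast gene whose hyperoxia effect differed between the times (0.45 ± 0.13, adjusted p = 0.0371), a call lost under 12 of the alternatives.

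Of the 10 pericyte genes 2 were called higher and 1 lower in hyperoxia at 24 h, against 28.3% of all genes called. This list held the most significant change among the lists near the members. Notch3, a receptor of mural cells, was at 0.70 ± 0.12 in hyperoxia and at -0.89 ± 0.13 in normoxia at 24 h, a rise of 3.01-fold (1.59 ± 0.11, adjusted p = 1.12e-07), and its effects at 24 h and 6 h differed by 1.10 ± 0.16 (adjusted p = 0.00042). Rgs5, a regulator of G protein signals, rose by 0.72 ± 0.19, a call lost under the normexp correction (0.106), and the proteoglycan gene Cspg4 fell by 0.91 ± 0.20. Over time Notch3 rose by 1.97 ± 0.11 in hyperoxia and by 0.87 ± 0.11 in normoxia. In hyperoxia Trpc6 (0.72 ± 0.16) and Pdgfrb (0.60 ± 0.20) rose and Mcam (-0.46 ± 0.16) and Higd1b (-0.31 ± 0.08) fell, and in normoxia Cspg4 rose (0.78 ± 0.20) and Kcnj8 (-1.85 ± 0.61), Abcc9 (-1.62 ± 0.40) and Rgs5 (-0.63 ± 0.19) fell. On median-scaled arrays the falls of Mcam, Higd1b and Rgs5 were not called (0.215, 0.297 and 0.108), and with the normexp correction those of Kcnj8, Abcc9 and Rgs5 were not (0.335, 0.0594 and 0.87). In all, the calls of Pdgfrb and Mcam in hyperoxia were lost under 3 of the alternatives each. In normoxia that of Kcnj8 was lost under 7 and that of Rgs5 under 6. Kcnj8 was well above background on 2 of the 4 normoxia 24 h arrays.

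Of 11 genes for the FGF10 receptor, its targets and its feedback, 4 were higher and 1 lower in hyperoxia at 24 h. Of all genes 28.3% were called, 15.5% higher and 12.8% lower. The signalling inhibitors Dusp6 (0.52 ± 0.11), Spry1 (0.49 ± 0.11) and Spry2 (0.44 ± 0.10) rose, and the transcription factor gene Etv5 fell (-0.79 ± 0.09, adjusted p = 1.26e-05). Etv5 was also the one gene of this list whose effect differed between the times (-0.50 ± 0.13, adjusted p = 0.0188). Over time the hedgehog ligand gene Shh fell by 2.82 ± 0.41 in hyperoxia and by 1.81 ± 0.41 in normoxia. Spry4 (0.50 ± 0.11), Etv4 (0.38 ± 0.13) and Spry1 (0.37 ± 0.11) rose in hyperoxia, the call for Etv4 being lost under 4 of the alternatives, and Etv4 (0.63 ± 0.13) and Etv5 (0.61 ± 0.09) rose in normoxia. Many receptors use these feedback genes, so they are not specific to FGF10. Of the 4 PDGF ligand genes Pdgfd rose (0.88 ± 0.24) and Pdgfc (-0.39 ± 0.09) and Pdgfa (-0.30 ± 0.07) fell in hyperoxia at 24 h, against 28.3% of all genes called. Over time Pdgfb fell by 1.42 ± 0.16 in hyperoxia and by 1.46 ± 0.16 in normoxia, Pdgfc rose by 0.32 ± 0.09 and 0.71 ± 0.09, and Pdgfa rose by 0.19 ± 0.07 in normoxia, which was near 0 under quantile normalization (adjusted p = 0.971).

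**Figure D5:**
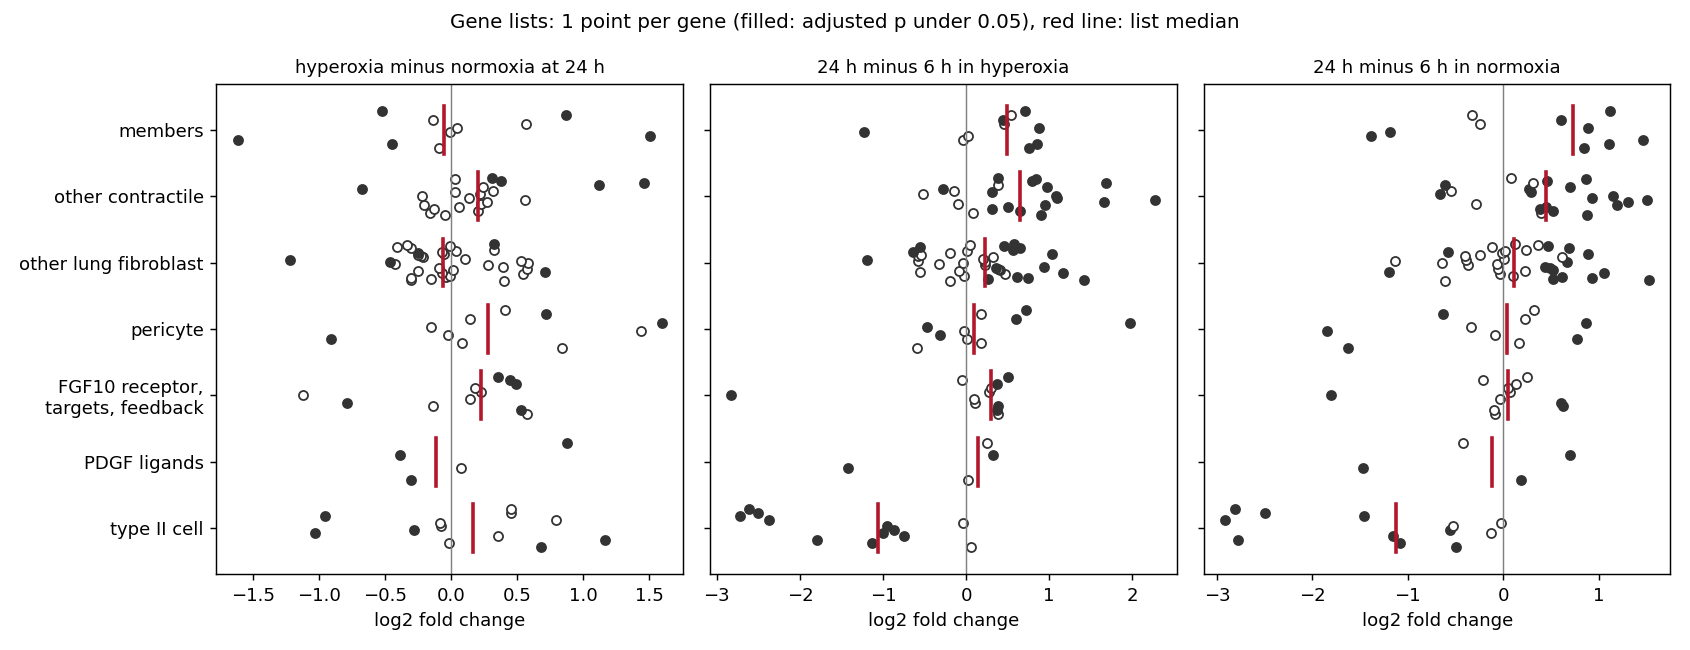
Log2 fold change of each gene of 7 lists for hyperoxia over normoxia at 24 h and for 24 h over 6 h in hyperoxia and in normoxia. Each point is a gene, filled where the adjusted p was under 0.05, and the red line is the list median. The contractile list has medians of 0.65 in hyperoxia and 0.45 in normoxia over time, and the type II list -1.06 and -1.12.

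Markers of other cell types moved over the same comparisons, and their part in the results was not tested. Of the 12 type II markers 10 fell over time in hyperoxia and 9 in normoxia, and 0 rose. Of all genes 27.4% were called lower and 25% higher in hyperoxia, and 23.5% and 20.6% in normoxia. Sftpc fell by 2.51 ± 0.43 in hyperoxia. Sftpb, which encodes a surfactant protein, fell by 2.72 ± 0.25 in hyperoxia, and Sftpd, a surfactant collectin gene, by 2.61 ± 0.30 in hyperoxia and by 2.81 ± 0.30 in normoxia. In hyperoxia at 24 h 2 of the type II markers were called higher and 3 lower, against 28.3% of all genes called. Among them were the lipid transporter gene Abca3 (0.68 ± 0.10), Lamp3 (-1.03 ± 0.08) and Sftpb (-0.95 ± 0.25). The other gene called higher, Cxcl15, was not well above background on any 24 h array, and its call was lost with the normexp correction (adjusted p = 0.86). Of 5 mesothelial markers 0 were called for hyperoxia at 24 h, against 28.3% of all genes. Over time mesothelin (Msln) fell by 0.57 ± 0.17 in hyperoxia, not called on median-scaled arrays (0.0927), and by 0.95 ± 0.17 in normoxia, where Wt1 (0.64 ± 0.24) was called higher, a call lost under 14 of the alternatives. The mean level of the mesothelial list was 1.26 to 3.04 on hyperoxia 24 h arrays, 1.26 to 2.57 on normoxia 24 h arrays, 2.13 to 2.78 on hyperoxia 6 h arrays and 1.91 to 2.71 on normoxia 6 h arrays.

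Of the 8 tested genes of heart and skeletal muscle 0 were called for hyperoxia at 24 h, against 28.3% of all genes. The skeletal actin gene Acta1 rose over time by 1.09 ± 0.15 in hyperoxia and by 1.20 ± 0.15 in normoxia, while the cardiac genes Myl7 (-1.29 ± 0.20 and -1.19 ± 0.20) and Myh7 (-0.82 ± 0.09 and -0.63 ± 0.09) fell, and Myh6 fell in hyperoxia (-0.62 ± 0.21), a sign that the normexp correction turned. With that correction the fall of Myh7 in normoxia was not called (0.0809). The list mean was -1.71 to -1.45 on hyperoxia 24 h arrays, -1.66 to -1.51 on normoxia 24 h arrays, -1.69 to -1.22 on hyperoxia 6 h arrays and -1.65 to -1.16 on normoxia 6 h arrays. Of T cell genes, which bear on Thy1, 5 of 8 were tested and 0 were called for hyperoxia at 24 h, against 28.3% of all genes. Their mean was -1.25 to -1.05 on hyperoxia 24 h arrays, -1.21 to -0.84 on normoxia 24 h arrays, -1.11 to -0.74 on hyperoxia 6 h arrays and -1.01 to -0.78 on normoxia 6 h arrays. Over time 1 of the 5 was called lower in each oxygen group, against 27.4% of all genes in hyperoxia and 23.5% in normoxia. This was Cd8a, which fell by 1.08 ± 0.30 in hyperoxia and by 0.86 ± 0.30 in normoxia. Those calls were lost under 1 and 10 of the alternatives. Cd8a was well above background on 0 hyperoxia 24 h arrays and 2 normoxia 24 h arrays.

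Of 5 tested endothelial genes 1 was called for hyperoxia at 24 h, against 28.3% of all genes. This was Egfl7, which was lower (-0.31 ± 0.07). Over time Kdr rose by 0.43 ± 0.09 in hyperoxia and by 0.40 ± 0.09 in normoxia. The tight junction gene Cldn5 fell by 1.01 ± 0.36 in hyperoxia and by 1.05 ± 0.36 in normoxia, calls lost under 10 and 9 of the alternatives. Of 7 tested leukocyte genes 1 was called for hyperoxia at 24 h, against 28.3% of all genes. This was the macrophage gene Cd68, which was higher (1.02 ± 0.09, adjusted p = 1.5e-06). Itgam rose over time by 1.54 ± 0.15 in hyperoxia and by 1.49 ± 0.15 in normoxia. The receptor gene Cd14 fell over time by 0.68 ± 0.15 in hyperoxia and by 0.96 ± 0.15 in normoxia. The leukocyte list mean was 1.24 to 1.73 on hyperoxia 24 h arrays, 1.02 to 1.34 on normoxia 24 h arrays, 1.28 to 1.33 on hyperoxia 6 h arrays and 1.09 to 1.34 on normoxia 6 h arrays. The endothelial list mean was -1.57 to -1.08 on hyperoxia 24 h arrays, -1.59 to -0.67 on normoxia 24 h arrays, -1.41 to -1.16 on hyperoxia 6 h arrays and -1.39 to -1.32 on normoxia 6 h arrays.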

How the data were processed

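Total RNA of 16 samples was labelled with Cy3 and hybridised to one-colour Agilent arrays, per the labels. Arrays were read with Agilent Feature Extraction 10.7.3.1, per the submitters' processing notes. In the deposited scanner files the signal used is a linear intensity, with background already subtracted on each array and no scaling across arrays, per the file headers. The log2 values in the authors' deposited table have a median of 7.19 on every array, and their normalization is not given in the sources used here. They served as an alternative.

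Processed signals were taken as log2 less each array's 75th percentile, spots of a probe were averaged, and each gene was read from its brightest probe. Genes entered the test where 3 or more of the 4 arrays in some group had them well above background. Levels are not comparable between probes. A linear model with 1 mean per group was fitted over 16 arrays with limma 3.58.1 in R 4.3.3, with Benjamini-Hochberg adjustment over 25401 genes and a threshold of 0.05. Recovery was checked on simulated data. Alternatives were normexp background correction (offset 50), median scaling, quantile normalization, the authors' values, no filter, array weights, replicate blocks, the compared groups alone and each array left out.

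Same-numbered arrays correlated in their deviations from group means at 0.25, 0.34, 0.24 and 0.26 at 24 h, all over 0.1, and at 0.25, 0.25, 0.35 and 0.09 at 6 h. The number was therefore used as a block within a slide, and that value is given where it changes a call. All 10 members are named, and of each list up to 3 called genes with the largest rise and fall per comparison. Of the marker lists of other cell types, not every gene that this rule picks is described. Members and lists were chosen with earlier results of these data known. The number of arrays limits the precision. The promoters are from RefSeq (GRCm38.p6).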

Additional observations from a re-analysis of the deposited data

Results flagged for a closer look

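On the normoxia 6 h replicate 3 array, Tagln was at 8.11, apart from the other 3 arrays of its group, of which the nearest was at 8.23. The gap took up 0.963 of the range of the group. Of the 40 groups of 4 arrays checked this was the 1 that stood out, and chance alone flags about 1 in 20. The same array was lowest of its group for 8 of the 10 genes.

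For Des and Fgf10 the effect of hyperoxia differed between the times by the interaction test of limma. The difference, 24 h less 6 h, was -1.50 for Des (adjusted p = 0.00679) and 1.40 for Fgf10 (adjusted p = 0.0192). The Des difference kept its call under every alternative run, and the Fgf10 difference under all but the normexp correction.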

How the results depend on the processing

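The 50 results of the 10 genes were recomputed under 25 alternatives, 16 of which leave out 1 array. Of 1220 values 1189 kept their side of the threshold, 16 lost a call and 15 gained one. No called value reversed, while some uncalled values near 0 changed sign. With normexp correction, 1 member was lower over time in normoxia, against 2, and 0 were higher in the difference of the hyperoxia effects, against 1, Fgf10 losing its call in both. With the replicate block of pairs within a slide, 3 members were higher and 2 lower in that difference, against 1 and 1, and with 1 array left out the count higher ran between 1 and 2. The cause of these changes was not tested. The replicate block changed no other member call beyond that of Pdgfra at 24 h. Normexp reversed the time changes of Myh6 in hyperoxia (0.0186) and of Cd8a (0.0606 in hyperoxia and 0.0811 in normoxia). Over all genes at 6 h, array weights gave 303 higher and 263 lower and the compared groups alone 21 and 8, against 60 and 23, and without 1 array they ran between 33 and 132 higher and between 11 and 61 lower. Of 110 results of named list genes 73 kept their call throughout. Reading other probes was not run, since each member has 1. Dim signal limits the sizes given for Fgf10 and Inmt.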
